A study of Mus musculus with 4 samples.

Results

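The aryl hydrocarbon receptor (AhR), its dimer partner and 7 genes known to respond to it were followed in mouse liver messenger RNA. The 9 genes, Ahr, Arnt, Ahrr, Tiparp, Cyp1a1, Cyp1a2, Cyp1b1, Nqo1 and Aldh3a1, were picked by symbol, and each matched 1 of the 54532 genes in the deposited count table. All livers came from C57BL/6 mice, an inbred strain, and all mice were on the HFD condition, letters that in mouse liver work usually mean a high-fat diet. The 2 groups held 2 libraries each: HFD alone (libraries HFD 334 and HFD 335) and HFD with I3A (I3A 303 and I3A 305). The labels give I3A by this abbreviation only. Its dose, route and duration and the age and sex of the mice are not stated in the labels used here. The series title asks about mitochondrial respiration in fatty liver disease. Livers without HFD, or treated with a known AhR agonist, were not analysed here, so each value is set against HFD alone.

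AhR is a transcription factor of the bHLH-PAS family that waits in the cytosol bound to chaperones. Dioxins, polycyclic aromatic hydrocarbons and several indole compounds bind it, after which it moves to the nucleus, pairs with ARNT and binds DNA at a short response element whose core letters are GCGTG. In liver, agonists are known to raise the cytochrome P450 genes Cyp1a1, Cyp1a2 and Cyp1b1, together with Tiparp and Ahrr, which encode feedback inhibitors of the receptor, and the detoxification genes Nqo1 and Aldh3a1. Cyp1a1 in particular is nearly silent in untreated liver and rises steeply with agonists, while Cyp1a2 is a standing hepatocyte enzyme.

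The promoters of 4 target genes are printed as a description of sequence: Cyp1a1, Cyp1a2, Nqo1, and Ahrr, which carries the most core letters. No expression value below was computed from them, and their part in any difference between the groups was not tested. Each run holds the 250 bases before the RefSeq start of the gene, 5′ to 3′ on the strand of the gene, on build GRCm38.p6. Capitals mark GCGTG, searched on both strands (as CACGC on the other), and TATAAA, searched on the strand of the gene.

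Cyp1a1 promoter, chr9:57697363-57697612, plus strand: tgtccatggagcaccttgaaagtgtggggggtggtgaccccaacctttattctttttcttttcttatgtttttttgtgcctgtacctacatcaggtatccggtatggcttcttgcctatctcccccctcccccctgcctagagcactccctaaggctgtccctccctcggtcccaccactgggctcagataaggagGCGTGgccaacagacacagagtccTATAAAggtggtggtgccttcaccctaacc
Cyp1a2 promoter, chr9:57683656-57683905, minus strand: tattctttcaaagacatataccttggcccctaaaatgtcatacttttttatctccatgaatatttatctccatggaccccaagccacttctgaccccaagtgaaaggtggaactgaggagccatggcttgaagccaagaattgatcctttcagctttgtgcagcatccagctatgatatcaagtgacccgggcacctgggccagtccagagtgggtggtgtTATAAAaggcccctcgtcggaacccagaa
Nqo1 promoter, chr8:107403206-107403455, minus strand: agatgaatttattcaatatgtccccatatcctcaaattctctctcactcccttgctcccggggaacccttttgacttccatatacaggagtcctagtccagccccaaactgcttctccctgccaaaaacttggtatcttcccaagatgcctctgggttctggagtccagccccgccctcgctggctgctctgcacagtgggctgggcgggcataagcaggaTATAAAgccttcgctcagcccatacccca
Ahrr promoter, chr13:74292332-74292581, minus strand: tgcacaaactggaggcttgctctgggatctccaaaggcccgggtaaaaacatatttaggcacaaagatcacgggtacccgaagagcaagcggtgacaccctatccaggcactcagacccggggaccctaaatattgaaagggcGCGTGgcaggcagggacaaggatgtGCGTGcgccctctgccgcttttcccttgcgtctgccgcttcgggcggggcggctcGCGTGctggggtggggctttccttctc

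Cyp1a1 and Cyp1a2 lie head to head on chromosome 9, with 13958 bases between their RefSeq starts. Cyp1a1 as counted here begins farther upstream, at base 57687928, so its printed window lies inside the counted gene. TATAAA stands 30 bases before the start of Cyp1a1 and 29 bases before those of Cyp1a2 and Nqo1. Of 32851 promoter windows in the RefSeq table, 7.59% held TATAAA. The core GCGTG occurs once in the Cyp1a1 window, 54 bases before the start. It is in neither the Cyp1a2 nor the Nqo1 window, and stands 107, 82 and 27 bases before the start of Ahrr. At least 1 copy was found in 28.2% of all windows and 3 or more in 2.77%. Of the 7 members with a promoter entry 5 held GCGTG, the others being Tiparp, Arnt and Cyp1b1 with 1 copy each. The response elements known to drive Cyp1a1 lie farther upstream than these windows, so the letters describe the windows only.

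Across the pathway, the target genes did not move as a block. Of the 5 targets with enough counts to be tested, Cyp1a1, Cyp1a2, Cyp1b1 and Tiparp had lower means in I3A livers and Nqo1 a higher one. Ahr was higher and Arnt nearly level. None of the 7 tested members passed edgeR's quasi-likelihood test at an adjusted p of 0.05. That test called 0 of 13403 genes (0.0%). At an unadjusted p under 0.05 stood 2 of the 7, Cyp1a2 and Nqo1, where 12.9% of all tested genes did. DESeq2 called the same 2 genes at an adjusted p of 0.05, against 2.5% of tested genes, and limma-voom called 0. Cyp1a1 and Cyp1b1 were given no adjusted p by DESeq2. Both I3A libraries lay on one side of both HFD libraries for 5 of the 7, against 45.5% of tested genes. They were above for 2 members (Ahr and Nqo1, against 23.1% of tested genes) and below for 3 (Cyp1a1, Cyp1a2 and Tiparp, against 22.5%). The words higher and lower below describe means or values and not a call.

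Levels are given as CPM, the reads of a gene per 1000000 reads of its library after TMM scaling. Library totals ranged from 15005668 to 18255623 counts, and 1 count was worth 0.0581 to 0.0651 CPM. The hepatocyte markers summed to between 78370 and 86969 CPM in the 4 libraries, with none at 0. Alb gave most of each sum, from 52543 to 57566 CPM. Library HFD 335 stands apart: its 8 skeletal muscle markers summed to 782 CPM and were all detected, while in the other libraries they summed to 0.515 to 0.929 CPM with 5 to 7 of 8 at 0. Markers of smooth muscle and mesothelium (196 CPM against 5.46 to 7.03), adipose tissue (115 against 4.71 to 10.7) and exocrine pancreas (146 against 12.8 to 24.9) were also highest there. Of the 196 CPM, the muscle genes Des, Acta2 and Myh11 gave 105, 44.9 and 37.4 CPM. The mesothelium genes Msln, Upk3b and Wt1 had only 0.485, 1.40 and 0.728 CPM in HFD 335, and Tagln was level over the libraries. I3A 305 stands apart in the other direction, with 81.0 CPM of sinusoidal endothelial markers against 197 to 318 CPM elsewhere and 91.5 CPM of stellate cell markers against 292 to 563 CPM, no marker of either list being at 0. Values without HFD 335 are given for each tested member, and for other genes a left-out library is named where it turned the direction or moved the fold by more than 1.5 times. These are whole-liver samples, in which fewer cells of a type and less RNA per cell cannot be told apart. The labels do not say that each library is a separate animal, so the p-values measure the spread between libraries.

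**Figure D1:**
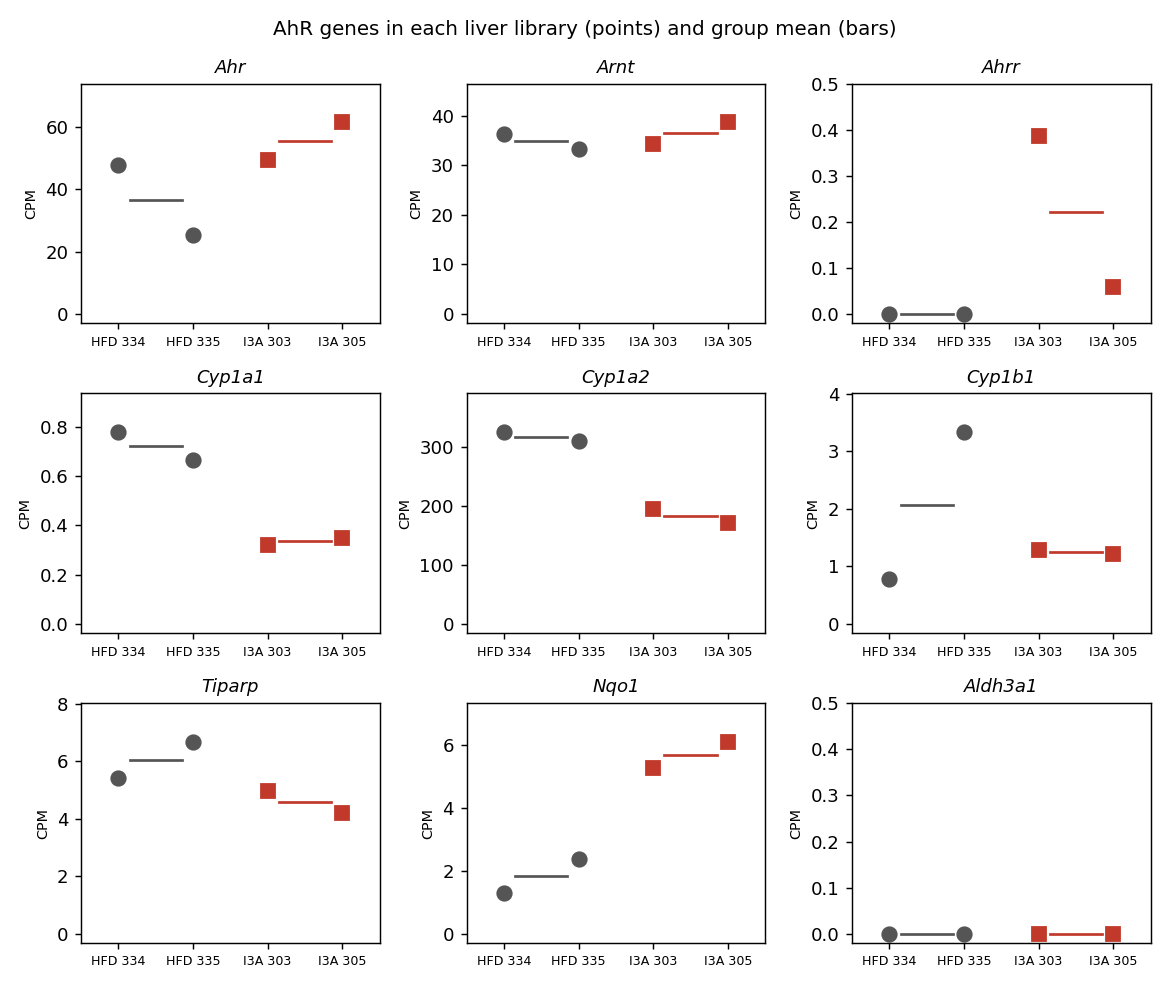
CPM of the 9 genes in each library (y axes from 0, 1 scale per gene), with circles for HFD, squares for I3A and a bar for each group mean. Cyp1a2 and Cyp1a1 are lower in both I3A libraries and Nqo1 is higher, Arnt is level, and Aldh3a1 is at 0 throughout.

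Cyp1a2, the hepatic P450 that metabolizes caffeine, aromatic amines and estrogens (chromosome 9, 57676937 to 57683703, minus strand), was the most abundant member and the one measured most precisely. It had 325 and 309 CPM in HFD livers (334 and 335) and 194 and 171 CPM in I3A livers (303 and 305). The groups did not overlap, and the gap between them was far wider than the gap within either. The mean was 1.74-fold lower with I3A, from 317 ± 11.4 to 182 ± 16.4 CPM (SD, n = 2). Its log2 fold change was -0.80 ± 0.11 (SE), with a 95% interval from 2.10-fold to 1.44-fold lower. In edgeR the unadjusted p was 4.68e-04 and the adjusted p 0.145, while DESeq2 gave an adjusted p of 2.19e-06. Without single libraries the log2 fold change ranged from -0.88 to -0.71, and it was -0.83 without HFD 335.

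Cyp1a1, the aryl hydrocarbon hydroxylase and the usual readout of AhR activity (chromosome 9, 57687928 to 57703824, plus strand), was close to the limit of detection in every library. It had 12 and 11 counts in HFD livers and 5 and 6 counts in I3A livers. As CPM these were 0.781 and 0.667 against 0.322 and 0.349, again without overlap. The mean was 2.13-fold lower with I3A, but at this depth the 95% interval reached from 5.54-fold lower to 1.22-fold higher (log2 fold change -1.09 ± 0.55, SE; edgeR unadjusted p = 0.0997, adjusted p = 0.462). The estimate stayed between -1.20 (without HFD 335) and -0.96 (without HFD 334) when single libraries were left out. Per kilobase of transcript, Cyp1a2 exceeded Cyp1a1 by 576-fold and 641-fold in HFD livers and by 835-fold and 678-fold in I3A livers. Cyp1a1 and Cyp1a2 are related in sequence, and how reads mapping to several places were handled is unstated in the labels used here, so Cyp1a1 counts are uncertain. They equalled 0.166% to 0.240% of the Cyp1a2 counts in the same library.

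Cyp1b1, the P450 of the same family that is expressed mainly outside hepatocytes (chromosome 17, 79706953 to 79715041, minus strand), had 12 and 55 counts in HFD and 20 and 21 counts in I3A livers. In CPM the HFD livers stood at 0.781 and 3.34, on both sides of the I3A livers at 1.29 and 1.22. Library HFD 335 alone was high. The log2 fold change of -0.72 ± 0.71 (SE; edgeR adjusted p = 0.703) turned to 0.68 without HFD 335 and was -1.40 without HFD 334, so the direction rests on 1 library. The stellate cell markers, 10 genes with none at 0, also summed highest in HFD 335 (563 CPM, against 292 in HFD 334, 308 in I3A 303 and 91.5 in I3A 305), as did the muscle markers above. These sums are not separate, since Des is in both the stellate and the smooth muscle list. It gave 105 CPM in HFD 335 against 4.03 in HFD 334. The part of these markers in the Cyp1b1 value was not tested.

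The feedback genes gave no higher mean that could be tested. Tiparp, an ADP-ribosyltransferase that marks AhR for breakdown (chromosome 3, 65528410 to 65555518, plus strand), had 5.40 and 6.67 CPM in HFD livers and 4.95 and 4.18 CPM in I3A livers. Both I3A libraries lay below both HFD libraries, though the nearest pair differed by less than the HFD pair. The mean was 1.32-fold lower, with a 95% interval from 2.04-fold lower to 1.17-fold higher (log2 fold change -0.40 ± 0.25, SE; edgeR adjusted p = 0.534), and -0.24 without HFD 335. Ahrr, the repressor that competes with AhR for ARNT (chromosome 13, 74211118 to 74292331, minus strand), had 0 counts in both HFD libraries, 6 in I3A 303 and 1 in I3A 305. A count of 0 allows up to 3 counts, or 0.195 and 0.182 CPM in HFD 334 and HFD 335. Only I3A 303, at 0.386 CPM, exceeded that limit. Ahrr was too low to be tested, and no fold is given.

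Nqo1, the quinone reductase that AhR shares with the oxidative stress factor NRF2 (chromosome 8, 107388225 to 107403206, minus strand), was higher in I3A livers. It measured 1.30 and 2.37 CPM in HFD livers against 5.28 and 6.10 CPM with I3A, from 20, 39, 82 and 105 counts. The lowest I3A library was above the highest HFD library by more than either pair differed. The mean was 3.08-fold higher, with a 95% interval from 1.62-fold to 5.86-fold (log2 fold change 1.63 ± 0.37, SE). The unadjusted p was 0.00557 and the adjusted p 0.238 in edgeR, and DESeq2 gave an adjusted p of 0.0399. Without single libraries the log2 fold change lay between 1.28 and 2.12, the latter without HFD 335. Aldh3a1, an aldehyde dehydrogenase that agonists switch on from silence in liver (chromosome 11, 61207537 to 61218421, plus strand), had 0 counts in all 4 libraries, which allows up to 0.174 to 0.195 CPM.

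**Figure D2:**
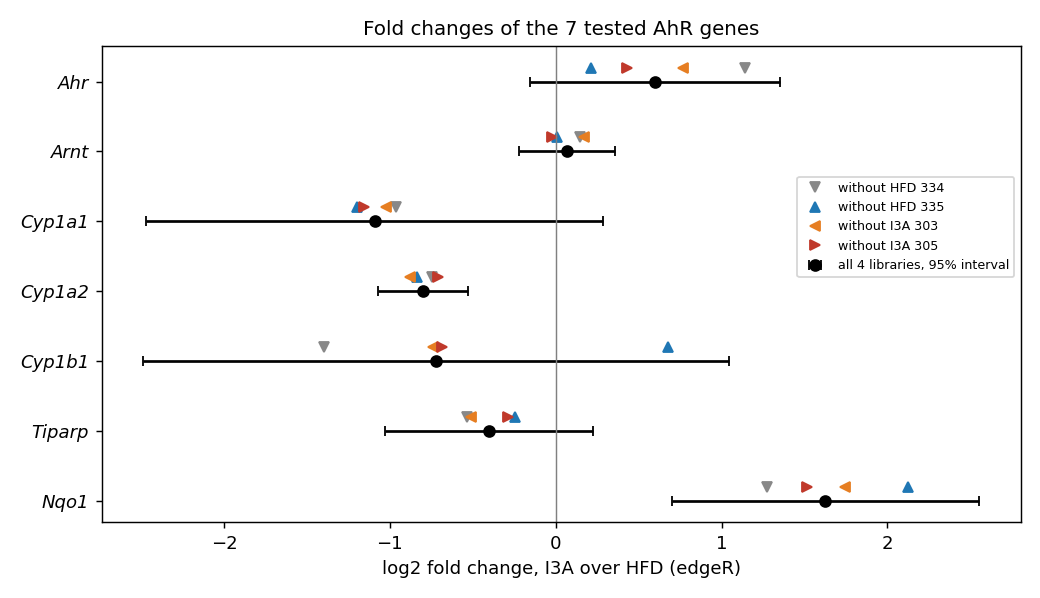
Log2 fold change of I3A over HFD (x axis) for the 7 tested genes from edgeR, with black circles and 95% intervals for all 4 libraries and coloured triangles for fits that leave out 1 library. Cyp1a2 stays below 0 and Nqo1 above 0 in each fit shown, and Cyp1b1 changes sign without HFD 335.

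Ahr itself (chromosome 12, 35497974 to 35535038, minus strand) varied within the HFD group. It had 48.0 CPM in HFD 334, 25.4 CPM in HFD 335, 49.5 CPM in I3A 303 and 61.6 CPM in I3A 305. The low library was HFD 335, while HFD 334 and I3A 303 were nearly equal. The mean was 1.52-fold higher with I3A (log2 fold change 0.60 ± 0.30, SE; edgeR unadjusted p = 0.0981, adjusted p = 0.461). Without HFD 335 the log2 fold change was 0.21. Without HFD 334 it was 1.14, in a fit where HFD 335 was the only HFD library. In the alternatives that kept all 4 libraries its adjusted p ranged from 0.172 (edgeR without a filter) to 0.465 (edgeR with library size scaling). Hepatocyte markers summed to 78370 CPM in HFD 334 and 78910 CPM in HFD 335, of which Alb alone gave 52725 and 54145 CPM. Alb and Cps1 were higher in HFD 335, while Apoa1, Ttr, Trf, Hnf4a, Serpina1c and Fgb were lower there. The part of the tissue markers of HFD 335 in the Ahr value was not tested.

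Arnt, the partner that AhR shares with the hypoxia factors (chromosome 3, 95434388 to 95497240, plus strand), measured 36.4 and 33.4 CPM in HFD livers against 34.4 and 38.7 CPM with I3A. The groups overlapped. The log2 fold change was 0.068 ± 0.12 (SE; edgeR adjusted p = 0.837), with a 95% interval from 1.17-fold lower to 1.28-fold higher. Its sign turned under scaling by library size (-0.024) and without I3A 305 (-0.025), and it was 0.0074 without HFD 335. Per kilobase, Arnt stood at 0.584 of the Ahr level in HFD 334, 1.01 in HFD 335, 0.534 in I3A 303 and 0.484 in I3A 305.

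Compared per kilobase of transcript and averaged over the libraries, the members ranked from Cyp1a2 (124 CPM per kilobase) through Ahr (7.48), Arnt (4.46), Nqo1 (2.42), Tiparp (1.22), Cyp1b1 (0.323) and Cyp1a1 (0.190) to Ahrr (0.0118) and Aldh3a1 at 0. The ranges over libraries of Ahr and Arnt overlapped, as did those of Nqo1 and Tiparp and those of Cyp1b1 and Cyp1a1. Ahrr and Aldh3a1 were both at 0 in the HFD libraries, and the remaining neighbours in this order did not overlap. The place of Nqo1 differed between the groups: its mean was below that of Tiparp in HFD livers (1.18 against 1.39 CPM per kilobase) and above it in I3A livers (3.66 against 1.05). Cyp1a2 stood 372nd among the 13403 tested genes on this scale, and Cyp1a1 12863rd.

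Among 60 tested cytochrome P450 genes, taken by symbol after the values were seen, Cyp1a2 ranked 18 by level per kilobase, Cyp1b1 56 and Cyp1a1 59. The P450 genes as a whole moved both ways, 31 with a higher and 29 with a lower mean in I3A livers (median log2 fold change 0.047, beside -0.010 over all tested genes). That median was 0.14 without HFD 335 and turned to between -0.016 and -0.011 without any 1 of the other libraries. At an unadjusted p under 0.05 stood 13 higher and 10 lower P450 genes, where 6.66% of all tested genes were higher and 6.24% lower at that p. Counted from the lowest value of the log2 fold change, Cyp1a1 was number 4, Cyp1a2 number 11 and Cyp1b1 number 13 of the 60.

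**Figure D3:**
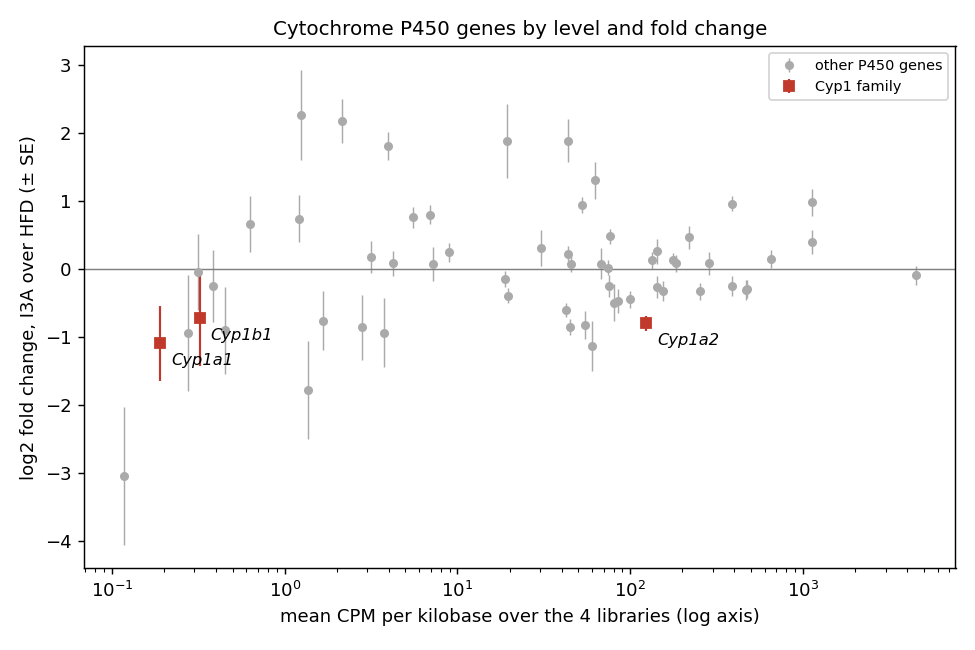
Log2 fold change of I3A over HFD (y axis, ± SE) against mean CPM per kilobase (x axis, log scale) for 60 P450 genes, with the Cyp1 family as red squares. All 3 Cyp1 genes lie below 0, Cyp1a2 with a short error bar and the low-count Cyp1a1 and Cyp1b1 with long ones.

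A wider list of 24 genes reported to respond to AhR agonists had 18 members with enough counts. Of these 6 had a higher and 12 a lower mean in I3A livers (median log2 fold change -0.15). At an unadjusted p under 0.05 stood 2 higher and 5 lower, where 6.66% of all tested genes were higher and 6.24% lower. The adjusted test was passed by 0. Cd36, a fatty acid transporter, had 45.4 and 65.6 CPM in HFD livers against 21.6 and 22.8 CPM with I3A (log2 fold change -1.32 ± 0.19, SE; edgeR adjusted p = 0.158). Cyp2a5, a coumarin hydroxylase, went from 117 and 171 CPM in HFD livers to 89.0 and 73.9 CPM in I3A livers (-0.82 ± 0.20, or -0.53 without HFD 335). Ugdh, which makes the UDP-glucuronic acid used in conjugation, was on the other side, at 74.1 and 79.0 CPM in HFD livers against 96.9 and 119 CPM with I3A (0.49 ± 0.13). Ugt1a6a and Ugt1a6b, glucuronosyltransferases that agonists induce alongside Cyp1a1, had overlapping groups. Their log2 fold changes of 0.38 ± 0.64 and 0.13 ± 0.17 turned to -0.24 and -0.038 without HFD 335, and that of Ugt1a6a was 1.49 without HFD 334 and -0.32 without I3A 303. As genes that share exons with the rest of their cluster, both are uncertain in the counting. The median of the wider list was -0.24 without HFD 335 or I3A 305, -0.22 without HFD 334 and -0.30 without I3A 303.

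In the chaperone complex that holds AhR in the cytosol, Hsp90ab1 and Ptges3 were lower in both I3A livers than in both HFD livers. Hsp90ab1, the HSP90 isoform that binds the receptor, had 1332 and 1405 CPM in HFD livers against 830 and 995 CPM with I3A. Ptges3, which encodes the co-chaperone p23, had 105 and 98.4 CPM against 74.1 and 73.1 CPM. Their log2 fold changes were -0.58 ± 0.13 and -0.47 ± 0.093 (SE), with edgeR adjusted p of 0.242 and 0.214. Hsp90aa1, named after its values were seen, had 228 and 516 CPM in HFD livers against 245 and 280 CPM with I3A, with overlap, and its log2 fold change of -0.50 turned to 0.21 without HFD 335. In the full list of 16 complex members and cofactors, 5 were higher and 11 lower (median -0.092). At an unadjusted p under 0.05 stood 0 higher and 2 lower, where 6.66% of all tested genes were higher and 6.24% lower. The median of this list turned to 0.018 without HFD 335, so its sign rests on that library. The coactivator genes Ncoa1, Ep300 and Crebbp, named after their values were seen, had log2 fold changes of -0.095, -0.049 and 0.032, and that of Ep300 turned to 0.049 without HFD 335 and 0.013 without I3A 303.

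For Nqo1, the targets of NRF2 were set beside it. Of 19 listed genes 17 were tested, 10 higher and 7 lower. Their median was 0.037, which turned to -0.0046 without I3A 303 and was 0.071 without HFD 334 and 0.065 without HFD 335. At an unadjusted p under 0.05 stood 2 higher and 2 lower, where 6.66% of all tested genes were higher and 6.24% lower. Srxn1, a sulfiredoxin, had 35.5 and 44.1 CPM in HFD livers against 58.6 and 67.2 CPM with I3A (log2 fold change 0.66 ± 0.14, SE), and Pgd of the pentose phosphate pathway was higher by 0.43 ± 0.15. Osgin1 was lower (-0.56 ± 0.19). Nfe2l2, which encodes NRF2 and is named after its values were seen, measured 46.2 and 42.0 CPM in HFD livers against 37.6 and 32.0 CPM with I3A. The log2 fold change of Nqo1 was larger than that of each of these genes.

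For Cyp1a2, which is expressed mostly around the central vein, 17 other genes of that zone were set beside it, of which 5 were higher and 12 lower (median -0.21). At an unadjusted p under 0.05 stood 2 higher and 3 lower, where 6.66% of all tested genes were higher and 6.24% lower. Oat, ornithine aminotransferase, was higher (1029 and 1280 CPM in HFD livers against 1675 and 1923 CPM with I3A), while Rgn (-0.41 ± 0.12) and Lect2 (-0.37 ± 0.10) were lower. The log2 fold changes of Rgn and Lect2 were closer to 0 than the -0.80 of Cyp1a2. That of Sp5, a gene of the same list named after its values were seen, was -0.78 ± 0.39.

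Of 13 further bHLH-PAS factors, the family of AhR and ARNT, 6 were tested. Epas1, the hypoxia factor HIF-2alpha that pairs with ARNT, had 213 and 197 CPM in HFD livers against 143 and 146 CPM with I3A (log2 fold change -0.51 ± 0.095, SE; edgeR adjusted p = 0.204). The clock factor Arntl was at 4.29 and 4.49 CPM in HFD livers against 5.85 and 12.4 CPM with I3A, highest in I3A 305, with a log2 fold change of 1.06 that was 0.41 without I3A 305. Its relative Npas2 was at 1.24 ± 0.59, or 1.87 without HFD 335. Among 16 tested targets of the hypoxia factors, 5 were higher and 11 lower (median -0.22). At an unadjusted p under 0.05 stood 1 higher and 5 lower, where 6.66% of all tested genes were higher and 6.24% lower. Pfkfb3, a regulator of glycolysis, went from 46.5 and 35.3 CPM in HFD to 17.4 and 11.2 CPM in I3A livers (-1.52 ± 0.25), P4ha1 was lower (-0.77 ± 0.22) and Ldha was higher (0.60 ± 0.14). Without HFD 335, 1 target of the hypoxia factors was higher and 1 lower at that p, against the 5.35% and 4.73% of all genes in that fit, and the median was -0.13. That median was -0.12 without I3A 305, -0.33 without I3A 303 and -0.22 without HFD 334. Of 15 targets of the xenobiotic receptors CAR and PXR 9 were tested, 7 higher and 2 lower (median 0.087, or 0.0058 without HFD 334, 0.25 without HFD 335 and 0.038 without I3A 303). At an unadjusted p under 0.05 stood 1 higher and 2 lower, beside the same 6.66% and 6.24% of all tested genes. Cyp3a13 was higher (1.31 ± 0.27, or 0.83 without I3A 305). Cyp3a11 (-1.13 ± 0.37, or -1.78 without I3A 303 and -0.68 without I3A 305) and Aldh1a1 (-0.35 ± 0.11) were lower.

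**Figure D4:**
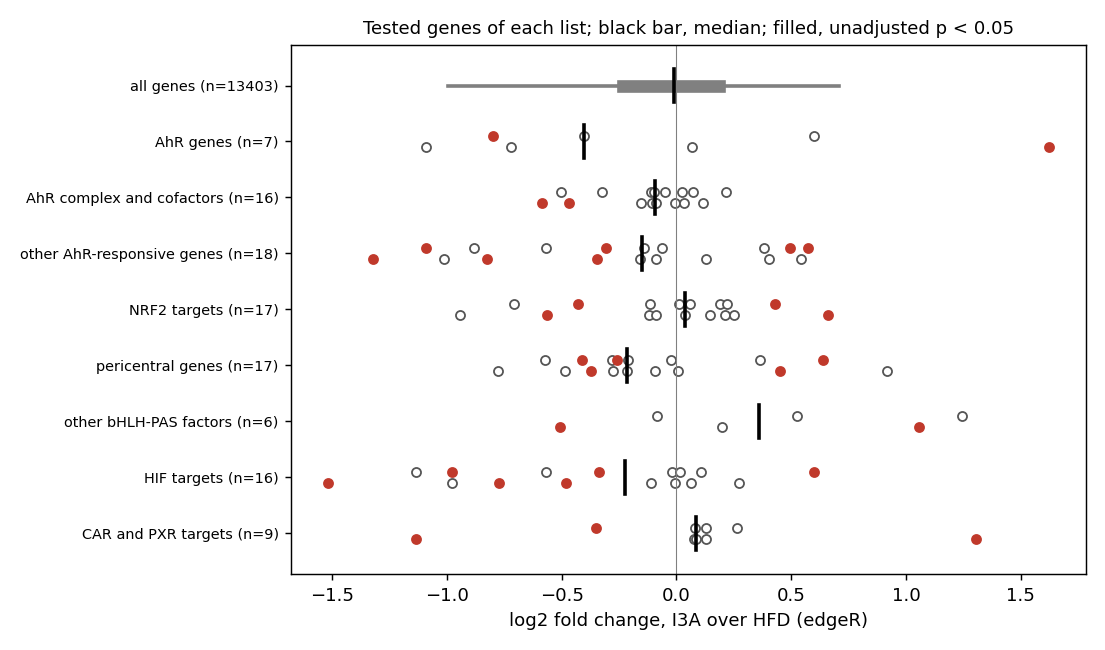
Log2 fold changes of I3A over HFD (x axis) for the tested genes of each list, 1 circle per gene, filled where the unadjusted edgeR p was under 0.05, with a black bar for the median. The grey bars for all 13403 genes span the 25th to 75th and the 5th to 95th percentiles, and the AhR genes spread from Cyp1a1 at -1.09 to Nqo1 at 1.63.

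Among the 7556 other tested genes that averaged 10 CPM or more, those with the pattern over the 4 libraries nearest to Cyp1a2 were Iigp1, Sult5a1 and Cebpg. Their root mean square distances in centred log2 CPM were 0.048, 0.048 and 0.062. Cebpg, a C/EBP family factor, had 90.5 and 79.5 CPM in HFD livers against 50.6 and 48.7 CPM with I3A. In total 31 genes lay within 0.1 of Cyp1a2. Nearest to Ahr were Mfsd2a (0.12), the epidermal growth factor receptor gene Egfr (0.12) and Usp6nl (0.16). Egfr had 1239 CPM in HFD 334, 628 CPM in HFD 335, 1056 CPM in I3A 303 and 1309 CPM in I3A 305, and was lowest in the same library as Ahr. With 4 libraries such likeness is a description and says nothing of shared control.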

How the data were processed

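RNA was isolated with Trizol and made into libraries with a NEBNext Ultra kit, per the labels' protocols. HISAT2 and featureCounts 1.5.0-p3 were used with build GRCm38, per the submitters' processing notes. Annotation release, strand setting and treatment of multiply mapping reads are unstated there. Raw read counts per gene were deposited, untransformed. The 2 libraries of each group differed by more than counting error (chi-square over its degrees of freedom 29.6 between the HFD and 26.9 between the I3A libraries). They were thus not 1 library read again, which does not show that they came from separate animals. Each was counted as 1 replicate.

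Genes were filtered by edgeR 4.0.16 (filterByExpr, minimum count 10), scaled by TMM and fitted with group as the single term. Tests were 2-sided quasi-likelihood tests in R 4.3.3, with Benjamini-Hochberg adjustment over all 13403 tested genes. The smallest p that an exact permutation of 2 against 2 libraries allows is 0.333. Limits for 0 counts (3 counts) cover counting error only. DESeq2 1.42.0, limma-voom (limma 3.58.1), other scalings and filters and the omission of each library were alternatives. On simulated counts of 13403 genes with 200 changed, edgeR recovered 33% of 2-fold and 81.5% of 4-fold changes, with 10 and 21 false calls. For DESeq2 the recovered shares were 50.5% and 82.5%, at a cost of 22 and 30 false calls. In the deposited counts edgeR called 0 of 13403 tested genes, with a smallest adjusted p of 0.141. Whether the simulated shares hold for these libraries was not tested, so they are no measure of power here.

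The members, gene lists and tests were chosen with earlier results of these data known. Named genes are the 9 members, the 3 genes of each list with the smallest unadjusted p, and the 3 genes nearest in pattern to Ahr and to Cyp1a2, without predicted genes; 1 gene that this rule takes is not reported here. Other named genes are marked in the text or serve as examples of overlap or levels. Exons of the genes taken by the naming rule were compared with GENCODE M21, and the largest overlapping gene held 3.22% of the counts of its partner (Tiparp). The other named genes, Ugt1a6a and Ugt1a6b among them, were not compared. Promoters come from RefSeq.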

Additional observations from a re-analysis of the deposited data

How the results depend on the processing

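The count of called genes was 0 of all genes and 0 of the members in edgeR, and stayed so with RLE, upper-quartile or library size scaling, a minimum of 10 counts in every library, limma-voom and an adjusted p under 0.1. Without a filter on low counts edgeR called 619 of 24119 tested genes, and DESeq2 called 335 of 13403. Each called 2 members, Cyp1a2 and Nqo1, and the cause was not tested. Leaving out single libraries gave 0 to 343 genes and 0 to 1 members, the 1 being Ahr without HFD 334. Of 76 fold changes of single members under the alternatives, 73 kept their direction. The 3 exceptions were Arnt with library size scaling (-0.024) and without I3A 305, and Cyp1b1 without HFD 335. Over the omitted libraries Arnt ranged from -0.025 to 0.17 and Cyp1b1 from -1.40 to 0.68. Cyp1a1 could not be tested with 10 counts in every library. No paired analysis was possible because the groups share no replicate number. Depth limits Cyp1a1 (5 to 12 counts per library), Ahrr and Aldh3a1.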

Other observations

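Sim2, a bHLH-PAS factor of the same family as AhR, was picked out after its values were seen. It had 83 counts in HFD 335 and 0 in each other library, and Arnt2, a relative of Arnt, had 8 counts in HFD 335 and 0 elsewhere. HFD 335 is the library with skeletal muscle transcripts, where Acta1 had 6221 counts and Ckm 1408 counts against 0 in each of the others. Their part in the Sim2 and Arnt2 counts was not tested.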
